A study of Homo sapiens with 288 samples.

Results

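The genes described here are the WNT ligands and R-spondins, their frizzled (FZD) receptors and LRP co-receptors, the secreted inhibitors of the SFRP and DKK families, and AXIN2, LEF1 and TCF7 from the nuclear end of the pathway. They were chosen by gene symbol, and 44 of the 17492 protein-coding genes in the deposited tables matched: 19 WNT ligands, 8 FZD receptors, 2 LRP co-receptors, 4 R-spondins, 8 inhibitors and 3 nuclear or response genes. FZD2 and FZD10 were not analysed here.

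The study sequenced stored full-length cDNA of single cells made from H1, an established human embryonic stem cell line, to ask how equalizing the amount of cDNA per cell affects single-cell RNA-seq. Endothelial cells (EC) were made in E8 medium with BMP4 (5 ng/ml) and Activin A (25 ng/ml) for 2 days, followed by VEGF and a WNT supplement for 3 days. Trophoblast-like cells (TB) were made in E7 medium, which is E8 without FGF2, with BMP4 (50 ng/ml) and the Activin and TGF-beta receptor inhibitor SB431542. The same 45 EC and 51 TB cDNAs went through 3 library experiments, named EQ (equal cDNA input and equal pooling), EQ-Vary (equal input, variable pooling) and EQ-75% (a repeat of EQ at lower depth).

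WNT proteins are secreted, lipid-modified signals that bind an FZD receptor together with LRP5 or LRP6. This binding stabilizes beta-catenin, which enters the nucleus and works with TCF and LEF factors, and AXIN2 is a widely used read-out of that step. SFRP proteins bind WNTs outside the cell, DKK1 blocks the LRP co-receptors, and R-spondins keep FZD receptors at the surface. In endothelium FZD4 is known for its part in vessel growth, and in the placenta WNT signals are known to act in trophoblast growth and branching.

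Levels are given as CPM, a gene's counts after scaling the total count of its cell to 1000000, and a gene was called detected in a cell at 1 count or more. All values are from EQ unless another experiment is named, over the 38 EC and 48 TB cells that met the study's limits for depth and for the part of all counts held by the top 50 genes. Total counts ranged from 471578 to 3966798 in EC (median 2025136) and from 365536 to 3479243 in TB (median 1968563). The labels name no separate cultures, so each cell type in each experiment is 1 sample. SDs are between cells, no test of TB against EC was made, and intervals cover counting error only, of reads or of cells within 1 sample.

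The cell types matched their labels by most markers. All 12 endothelial markers were at least 2-fold higher in EC, led by KDR at a mean of 1600.1 CPM in EC and 4.27 CPM in TB, PECAM1 at 1317 and 15.0 CPM and CD34 at 809 and 1.77 CPM. Of 11 trophoblast markers at 1 CPM or more, 9 were at least 2-fold higher in TB. Among them were KRT18 (327 and 1926 CPM in EC and TB), KRT8 (137 and 1259 CPM) and VTCN1 (3.64 and 1142 CPM), and also CGA at a low level (1.44 and 2.93 CPM). GATA3 (120 and 236 CPM) and GATA2, which was higher in EC (65.7 and 38.2 CPM), differed by less than 2-fold. CGB3 had no count. TB cells also had higher levels of 5 of 7 mesenchymal markers, such as LUM (10.2 and 3042 CPM) and COL3A1 (2.41 and 735 CPM). The same held for all 4 amnion markers measured, which include VTCN1 again. One EC cell stood apart, with a summed endothelial level of 401 CPM where the next lowest EC cell had 2313 CPM. Its summed pluripotency level was 2755 CPM against an EC median of 413 CPM. Its summed trophoblast level was 3964 CPM against an EC median of 496 CPM, the highest of the EC cells and above the lowest TB cell (2407 CPM). This cell was kept, and the values of members that rest on it are also given without it.

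Upstream sequences are shown for 4 members, so that a reader can see the DNA before the start of each gene. FZD4 and SFRP2 had large EC levels, WNT6 had counts in TB cells alone, and DKK1, which was found in few cells, is shown because it was the single one of the 4 to hold a match to the TCF/LEF motif. Each is the 250 bases before the RefSeq start on GRCh38.p14, written 5′ to 3′ on the gene's strand, with motif letters in capitals. They lie at chr11:86955396-86955645 (FZD4, minus strand), chr4:153789084-153789333 (SFRP2, minus strand), chr2:218859555-218859804 (WNT6, plus strand) and chr10:52314031-52314280 (DKK1, plus strand), and none overlaps an exon of the gene's own protein-coding transcripts.
FZD4: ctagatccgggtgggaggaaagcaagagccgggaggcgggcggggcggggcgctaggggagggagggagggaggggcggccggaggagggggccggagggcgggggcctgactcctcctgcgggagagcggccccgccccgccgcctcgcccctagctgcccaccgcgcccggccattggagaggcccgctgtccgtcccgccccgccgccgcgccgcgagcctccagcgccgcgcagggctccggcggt
SFRP2: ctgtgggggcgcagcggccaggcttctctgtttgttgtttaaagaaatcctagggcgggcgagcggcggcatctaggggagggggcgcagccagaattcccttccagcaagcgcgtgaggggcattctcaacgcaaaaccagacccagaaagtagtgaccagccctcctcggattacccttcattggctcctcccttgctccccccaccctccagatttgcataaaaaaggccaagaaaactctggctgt
WNT6: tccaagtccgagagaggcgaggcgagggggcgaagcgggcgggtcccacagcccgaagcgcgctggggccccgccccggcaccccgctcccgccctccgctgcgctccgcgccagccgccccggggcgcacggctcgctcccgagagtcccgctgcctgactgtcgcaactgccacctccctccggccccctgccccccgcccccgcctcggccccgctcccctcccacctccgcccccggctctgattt
DKK1: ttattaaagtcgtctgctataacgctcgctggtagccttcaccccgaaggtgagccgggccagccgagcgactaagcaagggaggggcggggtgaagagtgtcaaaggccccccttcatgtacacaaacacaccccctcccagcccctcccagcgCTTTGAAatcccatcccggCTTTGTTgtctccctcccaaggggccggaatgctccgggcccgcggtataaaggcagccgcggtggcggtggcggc

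The motif was searched on both strands in 4 forms, CTTTGAA as well as CTTTGAT with adenine sixth, and CTTTGTA as well as CTTTGTT with thymine sixth, in the 300 bases from 250 before to 50 after each start. DKK1 carried CTTTGAA at 95 and CTTTGTT at 76 bases before the start. RefSeq promoters were found for 31 of the 44 members, and 3 of their 35 promoters held a match (8.57%), beside 11.03% of all 18390 promoters of the genes in the tables. The promoters of the members had a median GC content of 69.7%, and those of all genes 62.7%. A match of these letters is a description of the sequence and not a bound site.

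Of the 44 members, 24 had an average of the EC and TB means of 1 CPM or more, 12 had counts below that level, and 8 had no count in any passing cell. Among the 24, 9 were at least 2-fold higher in EC, 10 at least 2-fold higher in TB, and 5 differed by less than 2-fold. Over the 12351 genes at that level, 19.2% were at least 2-fold higher in EC and 26.2% in TB. At a 4-fold limit 8 members were higher in EC and 8 in TB, where 10.1% and 14.8% of all genes were. The median log2 ratio of TB over EC was 0.08 over the 24 members and 0.06 over all genes, so the members as a group leaned to neither cell type, and single members stood far apart in both directions.

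**Figure D1:**
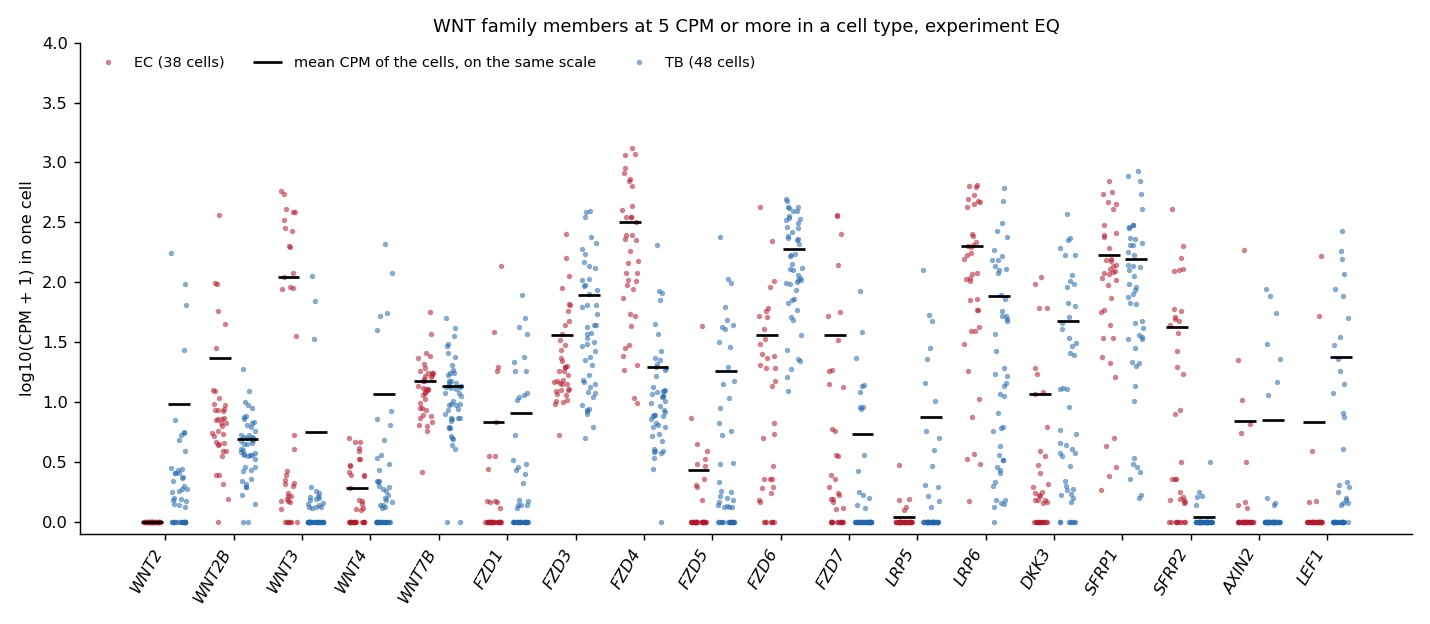
Level of the 18 members with a mean of 5 CPM or more in EC or TB, as log10(CPM + 1) on the vertical axis with 1 point per cell (38 EC and 48 TB cells of EQ), black bars marking the mean CPM of the cells on the same scale. FZD4 in EC and FZD6 in TB form single high bands, while WNT3 in EC splits into 16 cells at 34.7 CPM or more and 22 cells at 4.24 CPM or less.

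The receptors set the cell types apart by which FZD they carried. Among the 8 FZD genes analysed, FZD4, the receptor for WNTs and for the vascular ligand norrin, was the most abundant in EC. FZD6, a receptor best known for planar cell polarity, was the most abundant of them in TB. In EC cells FZD4 ranged from 8.79 to 1329.8 CPM with a median of 165 CPM (mean 316 ± 358 CPM, SD, n = 38 cells), and in TB cells from 0 to 203 CPM with a median of 8.99 CPM (mean 18.7 ± 32.8 CPM, n = 48 cells). The mean was 16.9-fold higher in EC, 36 of 38 EC cells had 10 CPM or more against 23 of 48 TB cells, and the ranges overlapped. FZD4 lies on chromosome 11 (86945679 to 86955395, minus strand, GRCh38).

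FZD6 showed the opposite order. It ranged from 11.3 to 498 CPM in TB (median 136, mean 188 ± 141 CPM), with all 48 cells at 10 CPM or more. EC cells ranged from 0 to 423 CPM (median 9.17, mean 34.9 ± 76.7 CPM), with 19 of 38 cells at 10 CPM or more. The mean was 5.37-fold higher in TB, with overlap in the range above 10 CPM.

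FZD3, another receptor of the polarity branch, was detected in every passing cell of both types. Its values ran from 4.24 to 249 CPM in EC (median 17.2, mean 35.3 CPM) and from 4.01 to 388 CPM in TB (median 36.01, mean 77.0 CPM), a 2.18-fold higher mean in TB with wide overlap. FZD7, a receptor abundant in pluripotent stem cells, was uneven: 11 of 38 EC cells had 10 CPM or more with a highest value of 365 CPM, and the EC median was 0.70 CPM. In TB 6 of 48 cells reached 10 CPM and the highest had 82.6 CPM, which left the mean 7.99-fold higher in EC (34.9 and 4.37 CPM). In EC 87.6% of the FZD7 CPM came from the 5 highest cells.

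FZD5, which acts in placental vessel formation in mice, had 0 to 238 CPM in TB (median 0.60, mean 17.1 CPM, 13 cells at 10 CPM or more). In EC it had 0 to 41.8 CPM (median 0, mean 1.70 CPM, 1 cell at 10 CPM or more), so the mean was 10.1-fold higher in TB. One EC cell gave 64.9% of the FZD5 level in EC, and without the highest cell of each type the log2 ratio of TB over EC was 4.34 in place of 3.33. FZD8 was detected in 21 of 48 TB cells (mean 3.29 CPM) and in 2 of 38 EC cells, and its EC mean of 0.30 CPM came to 96.0% from 1 cell and was 0.012 CPM without it. FZD1 differed little in mean CPM (5.85 CPM in EC, 7.06 CPM in TB), but 60.4% of its EC level came from 1 cell of 134 CPM. Taken as counts per summed total, TB over EC was 2.14-fold, with a counting interval of 1.88 to 2.45. Without the highest cell of each type the FZD1 means were 2.38 and 5.56 CPM, past 2-fold. FZD9 was found in 3 EC cells alone (mean 0.41 CPM).

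Per kb of transcript, the scale on which genes can be compared, FZD4 made up 67.2% of the summed FZD level in EC, followed by FZD6 (14.7%) and FZD7 (11.9%). These sums and ranks cover the 8 FZD genes analysed, without FZD2 and FZD10. In TB FZD6 made up 79.1%, followed by FZD3 (8.78%) and FZD4 (3.98%). Cell by cell, FZD4 was the highest FZD per kb in 26 of 38 EC cells and FZD6 in 6. FZD6 was the highest in 43 of 48 TB cells. Every passing cell of both types had at least 1 FZD gene at 10 CPM or more, with a median of 3 in each type.

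**Figure D2:**
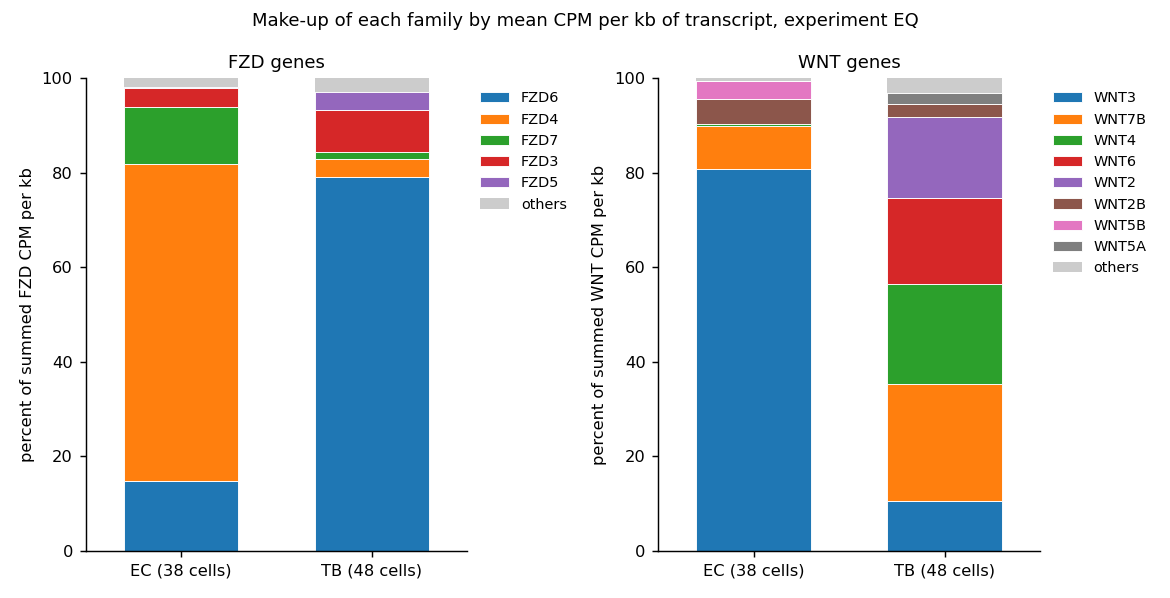
Make-up of the FZD family (left) and the WNT family (right) in EC (38 cells) and TB (48 cells), as stacked percent of the family's summed mean CPM per kb of the longest protein-coding transcript, with genes under 2% in both types joined as others. FZD4 takes 67.2% of the EC bar and FZD6 79.1% of the TB bar, and WNT3 takes 80.9% of the WNT bar in EC while no WNT gene takes over 24.9% in TB. FZD2 and FZD10 are not in the FZD bars.

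The co-receptors differed as well. LRP6 was present in both types, at 0.49 to 645 CPM in EC (median 117, mean 198 ± 202 CPM) and 0 to 614 CPM in TB (median 15.7, mean 76.3 ± 126 CPM), 2.60-fold higher in EC. LRP5 was close to absent in EC, where 5 of 38 cells held 8 counts in all and the highest had 1.99 CPM. In TB it was detected in 16 of 48 cells, 6 of them at 10 CPM or more, with a highest value of 126 CPM and a mean of 6.51 CPM (3.97 CPM without that cell). The LRP5 mean was 68.2-fold higher in TB, and 40.3% of the TB level came from 1 cell. The EC cell of low endothelial level gave 54.97% of the EC level of LRP5, and without it the EC mean was 0.044 CPM and the log2 ratio of TB over EC 7.20 in place of 6.09.

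An FZD gene and an LRP gene were both at 10 CPM or more in 32 of 38 EC cells (84.2%, exact binomial 95% interval 68.7 to 94.0%) and in 32 of 48 TB cells (66.7%, 51.6 to 79.6%). A WNT ligand was at that level as well in 28 EC cells (73.7%, 56.9 to 86.6%) and 27 TB cells (56.3%, 41.2 to 70.5%). WNT7B was at that level in 25 EC and 25 TB cells, with medians near the limit (11.9 and 10.6 CPM). Of the cells with WNT7B at 10 CPM or more in any experiment, all 3 shared 18 of 30 EC and 13 of 30 TB cells. The intervals do not cover this.

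The ligand with the largest level was WNT3, a canonical WNT of the primitive streak, in EC. Its values in EC fell into separate ranges: 16 cells had 34.7 to 574 CPM with a median of 234 CPM, 22 cells had 0 to 4.24 CPM with a median of 0.58 CPM, and no cell lay between. The EC median was therefore 1.55 CPM beside a mean of 108 ± 167 CPM. In TB WNT3 was at 0 in 30 of 48 cells, 3 cells were at 10 CPM or more and the highest had 111 CPM (mean 4.58 CPM), 23.7-fold below EC. Without the highest cell of each type the log2 ratio of TB over EC was -5.36 in place of -4.56. Across EC cells WNT3 had a Spearman rho of 0.30 with the summed trophoblast markers and -0.30 with the mesenchymal. It was -0.22 with the endothelial, 0.20 with the amnion and -0.079 with the pluripotency markers, and 0.13 with total count. With the summed streak and mesoderm markers rho was -0.37. That sum rested on MESP1 alone, in 3 of 38 EC cells at up to 0.64 CPM, with a median of 0. These values describe cells of 1 sample. By the outer bounds of both genes in GENCODE, the neighbour WNT9B lies 0.047 kb from WNT3 on chromosome 17. Their RefSeq promoters lie further apart, at 46818693 to 46818942 (WNT3) and 46851333 to 46851582 (WNT9B). WNT9B had 1 count in 1 TB cell.

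WNT2 and WNT6 had counts in TB and none in EC. WNT2, a ligand of placental and lung development, was detected in 31 of 48 TB cells with a median of 0.66 CPM and a highest value of 175 CPM. Its TB mean was 8.52 CPM (4.97 CPM without the highest cell), 222-fold a floor of 3 counts over the summed EC total (0.038 CPM), a log2 ratio of 7.80 that was 7.02 without the highest cell. Taken as counts per summed total, the lower limit of the counting interval of TB over EC was 98.8-fold. WNT6 was spread more evenly, with 24 TB cells detected, 9 at 10 CPM or more and a highest value of 34.5 CPM, and its mean of 4.02 CPM was 105-fold the same floor, with a lower counting limit of 86.9-fold. For either gene, 0 of 38 EC cells allows a share of detecting cells of up to 7.89% by a limit of 3 cells, and 9.25% by the exact binomial 95% interval. In EQ-75% 1 EC cell had 1 count of WNT2, and the log2 ratio of WNT6 to the floor was 5.67. WNT10A, which starts 6.62 kb beyond WNT6, had no count in either type.

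WNT4, a ligand of female reproductive tract development, was detected in 20 of 38 EC cells at no more than 4.004 CPM (mean 0.92 CPM) and in 28 of 48 TB cells at up to 209 CPM (mean 10.7 CPM). The 11.7-fold higher TB mean rested on 5 TB cells at 10 CPM or more, which held 91.8% of the TB level, and the medians were 0.27 CPM in EC and 0.42 CPM in TB. WNT2B was 5.72-fold higher in EC (22.3 and 3.90 CPM). One EC cell of 362 CPM gave 42.7% of that, the medians were 5.87 and 3.46 CPM, and without the highest cell of each type the means were 13.1 and 3.61 CPM. WNT5B, of the branch that acts without beta-catenin, was detected in 7 EC cells (0 to 34.8 CPM, mean 3.43 CPM) and had 2 counts in TB. The ratio of its counts per summed total, EC over TB, was 153, with a counting interval of 41.9 to 1269. The EC cell of low endothelial level held 34.4 CPM of WNT5B, and the EC mean without it was 2.60 CPM.

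WNT7B, which in the brain acts on vessel endothelium, was even in both types. It ranged from 1.60 to 55.2 CPM in EC (median 11.9, mean 13.98 ± 9.56 CPM) and from 0 to 49.1 CPM in TB (median 10.6, mean 12.6 ± 10.0 CPM). Of its nonzero values 97.6% were not whole numbers before rounding, which happens where the counting divides reads between genes, beside 62.0% of all nonzero values in EQ. The share was as high for WNT2B (98.8%), FZD3 (97.7%), FZD4 (97.6%) and TCF7 (100%), and it was 3.23% for WNT2, 14.3% for LRP5 and 26.5% for SFRP2. The part of divided reads in these levels was not tested.

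Of the other ligands, WNT5A was just under the limit of 1 CPM, with 11 TB cells detected (mean 1.69 CPM) and 2 counts in EC. WNT7A, WNT8B, WNT9A, WNT9B, WNT10B and WNT11 had means of at most 0.39 CPM in both types, and WNT1, WNT3A, WNT8A, WNT10A and WNT16 had no count. Per kb of transcript WNT3 made up 80.9% of the summed WNT level in EC. In TB the level was divided among WNT7B (24.9%), WNT4 (21.05%), WNT6 (18.2%), WNT2 (17.2%) and WNT3 (10.5%). With the median in place of the longest transcript length WNT4 led in TB with 51.6%, so the order of the TB ligands is not settled by these data. EC cells had 1.45 ± 1.03 WNT ligands at 10 CPM or more and TB cells 1.04 ± 0.85 (SD between cells), and 6 EC and 13 TB cells had none.

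Among the secreted inhibitors SFRP1, which binds WNTs, was high in both types. It was detected in all 86 cells and ran from 0.84 to 692 CPM in EC (median 119, mean 167 ± 176 CPM) and from 0.56 to 850 CPM in TB (median 81.8, mean 155 ± 200 CPM), a 1.08-fold difference. SFRP2, its close relative, had the largest ratio of means among members with counts in both types. In EC it ranged from 0 to 404 CPM (median 1.72, mean 41.1 ± 78.7 CPM), with 16 cells at 10 CPM or more and 9 cells at 0. In TB 5 cells held 10 counts in all and the highest had 2.17 CPM (mean 0.094 CPM), 435-fold below EC.

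DKK3, a divergent DKK that does not act on LRP6 as DKK1 does, was 4.41-fold higher in TB. It ranged from 0 to 110 CPM in EC (median 0.58, mean 10.6 CPM, 8 cells at 10 CPM or more) and from 0 to 369 CPM in TB (median 6.39, mean 46.7 CPM, 23 cells at 10 CPM or more). DKK1 was found in 2 EC cells, of which 1 at 95.8 CPM gave 82.2% of the EC mean of 3.06 CPM, and in 1 TB cell with 1 count. The ratio of its counts per summed total, EC over TB, was 427 with a counting interval of 76.0 to 16895. The ratio of its mean CPM was 157, a log2 ratio of TB over EC of -7.29. Without the highest cell of each type the EC mean was 0.56 CPM and no TB count was left. The log2 ratio was then -4.17, to a floor of 3 counts over the summed TB total. That floor (0.031 CPM) lies above the TB mean (0.020 CPM), so part of the change comes from the floor. DKK2 was found in 2 EC cells (mean 0.46 CPM), SFRP4 had 1 count, and DKK4 and SFRP5 had none.

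R-spondins were scarce. RSPO2 was detected in 8 EC cells, 4 of them at 10 CPM or more, with a highest value of 42.6 CPM and a mean of 3.03 CPM, and it had no count in 48 TB cells, so that its EC mean was 97.4-fold the TB floor of 0.031 CPM. A count of 0 in 48 cells allows a share of up to 6.25% by a limit of 3 cells, and 7.40% by the exact binomial 95% interval, and 1 TB cell had 1 count in each of EQ-Vary and EQ-75%. RSPO1 was at 57.2 CPM in 1 EC cell, and the mean of the other EC cells was 0.042 CPM. RSPO3 was found in 4 TB cells (mean 0.54 CPM), and RSPO4 had no count.

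At the nuclear end, AXIN2 was detected in few cells of either type: 9 of 38 EC cells (23.7%, exact binomial 95% interval 11.4 to 40.2%) and 10 of 48 TB cells (20.8%, 10.5 to 34.99%). Its means were 5.97 CPM in EC and 6.10 CPM in TB, but 1 EC cell of 183 CPM gave 80.6% of the EC mean. Without the highest cell of each type the means were 1.19 and 4.39 CPM, past 2-fold, and 2 EC and 7 TB cells had 10 CPM or more. LEF1, a DNA-binding partner of beta-catenin, was found in 5 EC cells (13.2%, 4.41 to 28.1%) and 25 TB cells (52.1%, 37.2 to 66.7%). Its mean was 5.79 CPM in EC, of which 74.8% was in 1 cell, and 22.5 CPM in TB, 3.88-fold higher, with a highest TB value of 268 CPM. With each cell thinned to 1000000 counts, which left out 4 cells of each type, LEF1 was expected in 8.69% of EC and 48.3% of TB cells. TCF7, the related factor, had means of 3.62 and 3.93 CPM.

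The members were set beside the level that markers of each cell type had in the other. The 12 endothelial markers were in TB at 0.14 to 2.94% of their EC mean (median 0.27%), and CDH5, a junction protein of endothelium, was detected in 31 of 48 TB cells at a mean of 0.75 CPM. SFRP2 (0.23%), WNT5B (0.52%) and DKK1 (0.64%) were in TB within that range. WNT3 (4.23%), FZD4 (5.91%), FZD7 (12.5%) and WNT2B (17.5%) were in TB above it. Whether levels within it are background or low expression was not tested. Of the nonzero values of FZD4 and WNT2B, 97.6% and 98.8% were not whole before rounding. The part of divided reads in their TB levels was not tested. In the other direction the range was wide. The 7 trophoblast markers at 5 CPM or more and over 4-fold higher in TB were in EC at 0.13 to 17.0% of their TB mean (median 0.80%). It was lowest for KRT7 and highest for the keratins KRT8 (10.9%) and KRT18. The 4-fold rule caps this range and leaves out markers such as TFAP2A (3.24-fold). KRT18 was detected in all 38 EC cells (median 168 CPM). TFAP2C (7.55%) had 1 EC cell of 995 CPM and an EC mean of 3.20 CPM without it. LRP5 (1.47%), WNT4 (8.57%), FZD8 (9.05%) and FZD5 (9.94%) were in EC within that range, and FZD6 (18.6%) and DKK3 (22.7%) were above it. The trophoblast range is therefore no measure of background in EC.

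Most cells that held a member at 10 CPM or more did so in each library experiment. Over the 37 EC and 45 TB cells that passed in all 3 experiments and the 18 members at 5 CPM or more, 554 combinations of a cell and a member reached 10 CPM in at least 1 experiment, and 460 of them (83.0%) did so in all 3. Detection at 1 count was less steady, at 813 of 1091 combinations (74.5%). The same 15 EC cells had WNT3 at 10 CPM or more in EQ, EQ-Vary and EQ-75%, and the same 35 had FZD4. FZD5 was at that level in the same 12 TB cells each time, and for SFRP2 14 of 16 EC cells were shared by all 3. Other members were less steady: of the cells at that level in any experiment, all 3 shared 14 of 25 TB cells for FZD4, 18 of 30 EC and 13 of 30 TB cells for WNT7B, and 6 of 11 EC and 0 of 3 TB cells for WNT2B. The libraries came from 1 cDNA per cell, so the repeat covers the library step and not the cell or its capture.

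**Figure D3:**
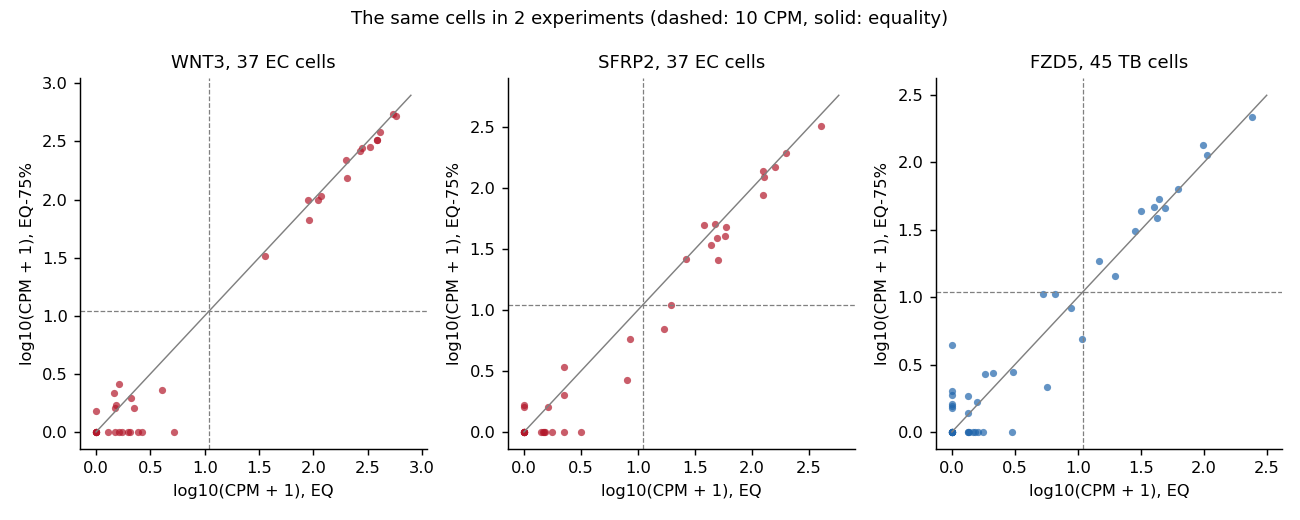
Level of WNT3 (left) and SFRP2 (middle) in 37 EC cells and of FZD5 (right) in 45 TB cells, with log10(CPM + 1) in EQ on the horizontal and in EQ-75% on the vertical axis, 1 point per cell that passed in all 3 experiments. The 15 EC cells above 10 CPM (dashed) for WNT3 in EQ are also above it in EQ-75%, and cells near 0 scatter between 0 and a few CPM.

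The cell type differences held across the experiments too. The same 9 members as in EQ were, in both EQ-Vary and EQ-75%, at least 2-fold higher in EC, and the same 10 in TB. Over all genes the shares were 19.4% and 26.3% in EQ-Vary and 18.3% and 27.1% in EQ-75%. For the 14 members at 5 CPM or more in 1 type and 1 CPM or more in both, the log2 ratio in the other experiments lay within 0.40 of that in EQ. The ratio moved more where one type had few counts. Among the 17 members at 5 CPM or more in a type and with counts in both types, LRP5 moved most. LRP5 in EC had 8 counts with EQ, 10 counts with EQ-Vary and 1 count with EQ-75%, and its log2 ratio was 6.09, 5.68 and 8.79. RSPO2, with no TB count in EQ, had log2 ratios of -6.61, -9.58 and -7.92 in the same order.

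**Figure D4:**
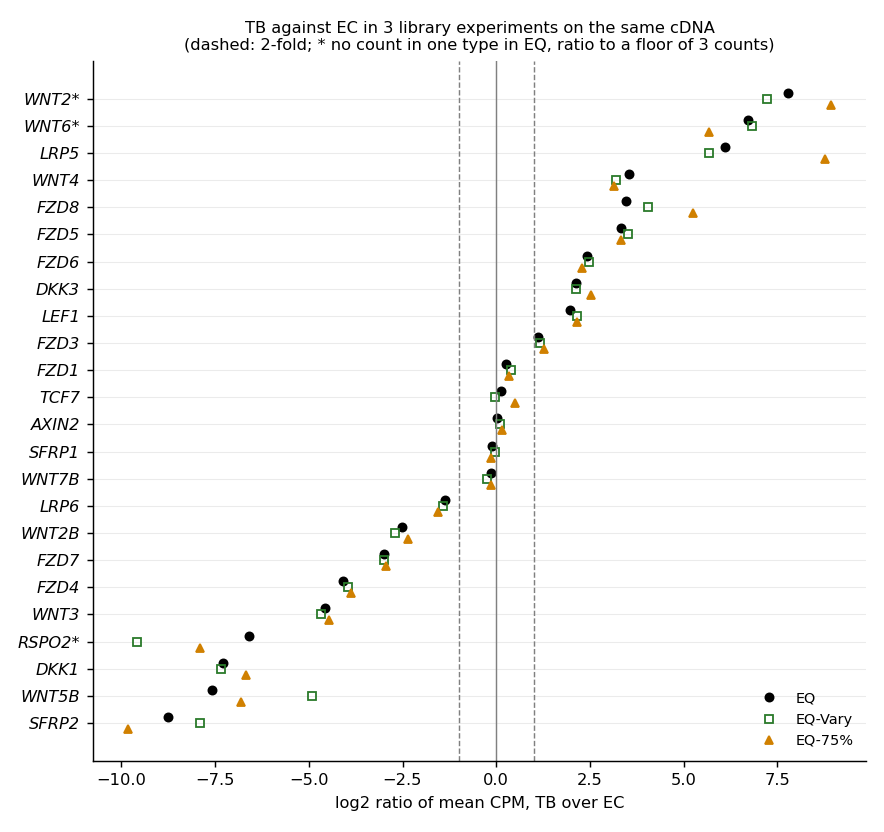
Log2 ratio of mean CPM, TB over EC, on the horizontal axis for the 24 members with an average of 1 CPM or more in EQ, 1 row per member, with EQ (filled circles), EQ-Vary (open squares) and EQ-75% (triangles), and dashed lines at 2-fold. The 9 members at the bottom are past 2-fold toward EC and the 10 at the top toward TB in all 3 experiments, and an asterisk marks a member with no count in 1 type in EQ, whose ratio is to a floor of 3 counts.

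The number of members detected per cell was 13.4 ± 2.35 in EC and 14.6 ± 2.74 in TB (SD between cells), with a range of 9 to 20 and 9 to 21. Within the same cells, EQ detected 0.81 ± 1.88 more members than EQ-75% (84 cells, 46 with more and 22 with fewer), and 0.34 ± 1.56 more once both libraries of a cell were thinned to the lower total. The difference from EQ-Vary was 0.12 ± 1.87 members (84 cells, 33 with more and 33 with fewer), and -0.11 ± 1.55 once thinned in the same way.

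Pairs of members were described by rank correlation across the cells of one type, with no other gene pairs set beside them. Among the 14 members at 5 CPM or more in EC, the 91 pairs had Spearman rho from -0.27 to 0.49, highest for FZD3 and LEF1. In TB the 91 pairs of 14 members had rho from -0.30 to 0.34, and no pair in either type reached 0.5. These are descriptions of sparse values in cells of 1 sample. With the summed level of each marker list and with total count, rho ran from -0.40 (WNT7B in TB with total count) to 0.40 (FZD4 in TB with the endothelial sum) over the members at 5 CPM or more in a type. Whether marker content has a part in the differences between EC and TB was not tested.

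The rest of the pathway was read from a list of 65 other WNT genes, of which 61 were in the tables and 47 had an average of 1 CPM or more. Of these 14 were at least 2-fold higher in EC (29.8%, beside 19.2% of all genes), 15 in TB (31.9%, beside 26.2%) and 18 differed by less, with a median log2 ratio of 0.03. CTNNB1, which encodes beta-catenin, was among the latter (1318 CPM in EC and 1419.7 CPM in TB). It is counted in the 9 of 12 cytoplasmic genes that differed by less than 2-fold. The planar cell polarity genes were split: PRICKLE1 (412 and 6.52 CPM), VANGL1 (30.5 and 0.50 CPM), VANGL2 (44.4 and 14.7 CPM) and CELSR3 (6.76 and 0.11 CPM, with 0.69 CPM in EC without the highest cell) were higher in EC, while CELSR1, CELSR2 and PRICKLE2 were higher in TB.

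Feedback and target genes were split too. SP5, a direct target of beta-catenin, was detected in 9 EC cells and 1 TB cell (3.02 and 0.018 CPM), and its TB value was 1 count. CCND1, cyclin D1, was 31.7-fold higher in EC (187 and 5.89 CPM), as was MSX1 by 18.2-fold (29.4 and 1.61 CPM), whereas its relative MSX2 (0.21 and 39.1 CPM) and MYC (0.089 and 12.2 CPM) were higher in TB. MYC was detected in 21 of 48 TB cells, with a TB median of 0 and a TB mean of 6.52 CPM without the highest cell. NKD1, a feedback inhibitor, was alike in mean (6.78 and 6.45 CPM), and NOTUM, which removes the lipid of WNTs, had no count.

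At the receptor level, RNF43 (0.12 and 4.56 CPM) and ZNRF3 (4.99 and 14.2 CPM), the ligases that remove FZD receptors, and LGR4 (0.93 and 33.3 CPM), the R-spondin receptor that holds them back, were higher in mean in TB. The medians of ZNRF3 were 4.66 CPM in EC and 4.29 CPM in TB, where the highest cell had 133 CPM. The TB medians of RNF43 and LGR4 were 0.18 and 3.14 CPM. ROR2, a receptor for WNT5A, was also higher in TB (0.18 and 9.75 CPM). It was detected in 21 of 48 TB cells, with a TB median of 0. The secreted inhibitor FRZB (67.0 and 2.23 CPM) was higher in EC. DKKL1, which was only listed with the inhibitors, was higher in EC as well (2.93 CPM in EC, no count in TB), with 0.44 CPM without its highest cell.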

How the data were processed

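The authors deposited RSEM expected counts, with no normalization, for 17492 genes in 288 libraries (96 per experiment). Per the labels and methods, reads were trimmed to 51 bp and mapped to GRCh38 with Bowtie 1.2.3 (up to 2 mismatches) before RSEM 1.2.31, after CASAVA 1.8.2. The unEQ libraries were not analysed here. Doublets and dead cells had been removed by image before these libraries, per the methods, and no doublet caller was run. Of the sample columns, 0 were unused.

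Counts were rounded, as in the methods, and divided by the cell's total. Cells needed a log10 total of 5.4 or more and at most 31% of counts in their top 50 genes, which left out 7 EC and 3 TB cells of EQ. Genes with an average of both means of at least 1 CPM were compared at 2-fold, a type with no count was set to 3 counts over its summed total, and no ratio was given where both types were at or under that floor. In a single cell 1 count is 0.25 to 2.74 CPM, depending on depth. The 18 members at 5 CPM or more got full values. The other WNT genes named are the 12 of largest log2 ratio past 2-fold, SP5, NKD1, NOTUM, ZNRF3 and RNF43. CTNNB1, CELSR1, CELSR2, PRICKLE2, VANGL2, MSX1, CDH5, KRT7, KRT8, KRT18, CGA, CGB3, GATA2, GATA3, TFAP2A, TFAP2C, MESP1 and the EC cell of low endothelial level were singled out after their values were seen.

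Same-numbered cells hold the same cDNA per the methods. Over 12351 genes their deviations from the type mean had a correlation of at least 0.849, and each cell matched its own number best, so experiments were compared within cells. Lengths and coordinates came from GENCODE 44. Ratios and thinning were tested on simulated data. The members and lists were chosen with earlier results of these data known. Python 3.11.15 was used with scipy 1.17.1, numpy 2.4.6, matplotlib 3.10.9 and pandas 2.3.3.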

Additional observations from a re-analysis of the deposited data

How the results depend on the processing

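The counts of members past 2-fold, 9 higher in EC and 10 in TB, were of the same genes with all cells, in EQ-Vary, in EQ-75%, with median-ratio size factors, with counts not rounded and, added after seeing the data, without the EC cell of low endothelial level. Without the highest cell of each type they were 7 and 12: DKK1 and RSPO2 dropped below 1 CPM, and FZD1 and AXIN2 passed 2-fold toward TB (log2 ratios 1.22 and 1.88), a setting that also moved the median log2 ratio of all genes by 0.11. With an average of at least 5 CPM, 6 of the 9 and 6 of the 10 were counted. Of 168 log2 ratios of single members under an alternative, 166 kept their side of the 2-fold limit and none changed direction among those past it. Of the other WNT genes, 9 in place of 14 were higher in EC without the highest cell of each type, and SP5 was not among those counted with all cells and in EQ-75%. With all cells 14 of the other WNT genes were higher in TB, 13 of them as reported, and CELSR1 and CELSR2 were not among them.

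Members detected per cell were 9.24 in EC and 10.0 in TB at 5 counts or more, and 10.8 and 11.6 with each cell thinned to 500000 counts. Of the shares of cells with a member, 38 of 216 left the counting interval, 22 of them at 5 counts or more. With no replicate block, the difference of EQ from EQ-75% was 0.89 members over all cells, and no comparison of experiments within cells moved by more than its SD. WNT4 was 51.6% of the WNT level per kb in TB with the median transcript length. Depth limits the low members: 1 count in the shallowest TB cell is 2.74 CPM. With 1 sample per cell type and experiment, cell type cannot be told apart from culture.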

Other observations

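The number of secreted inhibitors at 10 CPM or more per cell was 1.58 ± 0.83 in EC and 1.31 ± 0.62 in TB (SD between cells), with 4 cells of each type having none. TSPAN12, a partner of FZD4 at the membrane, was higher in TB (29.03 CPM in EC and 152 CPM in TB), while FZD4 itself was higher in EC, and NDP, which encodes norrin, was below 1 CPM in both types. RECK, which works with WNT7 ligands in endothelium, was at 76.5 CPM in EC and 6.61 CPM in TB, while its partner ADGRA2 was at 0.29 CPM in EC and had no count in TB. These genes were singled out after their values were seen.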
